A study of Mus musculus with 32 samples.

Results

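Expression was described for 9 genes of CXC chemokines, Cxcl1, Cxcl2, Cxcl3, Cxcl5, Cxcl9, Cxcl10, Cxcl12, Cxcl14 and Cxcl16, and for Cxcr4, the receptor of CXCL12. These 10 genes, of 55487 in the deposited tables, were taken by their symbols, from a list that was chosen by way of these same libraries, with levels in the 8 groups and BAT responses known. Their values are therefore given as a description, with no p-value, and a call of such a gene is a count and not evidence on its own. Satellite cells (the resident stem cells of muscle) and fibro-adipogenic progenitors (FAPs, mesenchymal cells that lie between muscle fibres) had been sorted from supraspinatus, a muscle of the rotator cuff, of wild-type (WT) male C57BL/6J mice of 12 weeks. Every muscle, control included, had been injured with cardiotoxin, a venom toxin that destroys muscle fibres. BAT muscles then received interscapular brown adipose tissue (BAT) from mice of 3 weeks, and control muscles had the injury alone. No sham operation and no other graft was analysed here, so brown fat cannot be told apart from surgery or any graft. Cells were collected at day 3 or day 7 from 4 mice per day, and each mouse gave control and BAT libraries of both cell types, 32 libraries in 8 groups of 4. At day 3 a replicate number names different mice in the 2 cell types. At day 7 it names the same mouse.

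Chemokines guide leukocytes and stem cells along gradients. The chemokines with an ELR motif, CXCL1, CXCL2, CXCL3 and CXCL5, attract neutrophils through the receptor CXCR2, and their genes are induced by IL-1, TNF and IL-17 through NF-kB. CXCL9 and CXCL10 are induced by interferons and attract T cells through CXCR3, CXCL16 is made as a membrane protein that binds CXCR6 and can be shed, and CXCL14 is a chemokine of epithelia and stroma. CXCL12 acts on CXCR4, is scavenged by ACKR3, and is known in muscle for guiding myogenic cells.

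Total counts were 19.8 M to 46.4 M per library (median 25.7 M), and a gene with no count can have had up to 0.0647 to 0.152 CPM, the worth of 3 counts in the library (counting error only), where CPM is the count per 1000000 counts of a library. Cells with CD45 (leukocytes) or CD31 (endothelium) had been gated out, and integrin alpha 7 had been required on satellite cells and its absence on FAPs. Satellite cell libraries held 21.0 to 164 CPM of Pax7, a defining gene of these cells, and FAP libraries 0 to 1.20 CPM. FAP libraries held 251 to 436 CPM of Pdgfra, a defining receptor of FAPs, and satellite cell libraries 0.101 to 19.1 CPM. The labels give Sca1 as present on both cell types, but Ly6a, its gene, was at 2.38 to 42.8 CPM in satellite cell libraries against 426 to 1162 CPM in FAP libraries. In 3 libraries of day 3, called macrophage-rich from here on, 18 macrophage and monocyte markers summed to 1851 CPM (satellite cells, control, replicate 3), 2112 CPM (satellite cells, BAT, replicate 4) and 5104 CPM (FAPs, BAT, replicate 1). The other day 3 libraries held 16.95 to 190 CPM of these markers, and 4 of them, like these 3, had all 18 above 3 counts. The last 2 of the 3 came from the BAT muscle of 1 mouse. At day 7 the mouse of replicate 3 had Xist at 163 to 355 CPM and Ddx3y, a gene of the Y chromosome, at 0 in all 4 libraries, against its label as male.

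Of the genes, 6 lie in 2 clusters on chromosome 5 (GRCm38/mm10, GENCODE M21), Cxcl5, Cxcl3, Cxcl1 and Cxcl2 from chr5:90759360 to 90905938, and Cxcl9 and Cxcl10 from chr5:92321347 to 92348889. The others lie alone, Cxcr4 at chr1:128588199-128592293, Cxcl12 at chr6:117168535-117181367, Cxcl16 at chr11:70453983-70459984 and Cxcl14 at chr13:56288643-56296551. Promoter sequences (RefSeq, build GRCm38.p6) were found for 8 of the 10 genes, without Cxcl5 and Cxcl16. The stretch from 120 to 31 bases upstream of the RefSeq start is shown for the 3 ELR chemokines, because all 3 hold the same letters there. Capitals mark matches to the kappa B consensus, the binding motif of NF-kB. All 3 are on the plus strand, at chr5:90891125-90891214, chr5:90903779-90903868 and chr5:90785981-90786070.
Cxcl1: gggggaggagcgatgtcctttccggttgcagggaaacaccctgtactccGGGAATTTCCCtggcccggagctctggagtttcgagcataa
Cxcl2: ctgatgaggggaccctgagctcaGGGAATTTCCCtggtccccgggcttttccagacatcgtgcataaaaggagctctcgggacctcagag
Cxcl3: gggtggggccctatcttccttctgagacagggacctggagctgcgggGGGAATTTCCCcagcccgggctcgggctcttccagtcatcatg

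In each the 11 capitals are 2 overlapping matches, the first starting 71 (Cxcl1), 97 (Cxcl2) and 73 (Cxcl3) bases upstream. The interferon-inducible Cxcl10 is shown over 250 bases upstream (minus strand, chr5:92348890-92349139), because it alone of the 8 held both kappa B and interferon motif matches. Its first capitals match the core of the interferon-stimulated response element (ISRE, GAAANNGAAA, 213 bases upstream), and the other 2 match kappa B (159 and 103 bases upstream).
Cxcl10: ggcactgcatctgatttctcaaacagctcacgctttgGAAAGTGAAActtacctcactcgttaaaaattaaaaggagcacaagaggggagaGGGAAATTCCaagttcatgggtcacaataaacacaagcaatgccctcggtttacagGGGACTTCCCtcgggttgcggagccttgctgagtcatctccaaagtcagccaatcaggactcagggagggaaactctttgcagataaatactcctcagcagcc

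On both strands of the 250 bases upstream, kappa B matches stood in 3.9% of 32851 RefSeq promoters, ISRE core matches in 2.98% and GAS matches (TTCNNNGAA, the gamma-activated site) in 7.02%. Cxcl14 had 1 GAS and 1 ISRE core match, 191 and 172 bases upstream, and none of the 3 motifs was in this window of Cxcl9, Cxcl12 or Cxcr4. These are matches of letters, and binding was not measured.

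FAPs held most of the chemokine transcripts, and satellite cells held the receptor. In bulk libraries such a difference can come from the number of cells with a transcript or from the amount per cell, which cannot be told apart. Per kilobase of exon, Cxcl1 ranked first of the 10 genes in every group, with a mean of 2331 CPM per kb in control FAPs at day 3 and 95.5 CPM per kb in control satellite cells. Cxcl5 came next in FAPs (285 CPM per kb) and then Cxcl2 (123 CPM per kb), in all 4 groups. In control FAPs at day 3 they were followed by Cxcl14 (101 CPM per kb) and Cxcl12 (85.3 CPM per kb). Cxcr4 ranked last in FAPs in all 4 groups and at rank 3 or 4 in satellite cells (11.0 CPM per kb in control at day 3). Levels from here on are CPM of a gene, not per length.

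**Figure D1:**
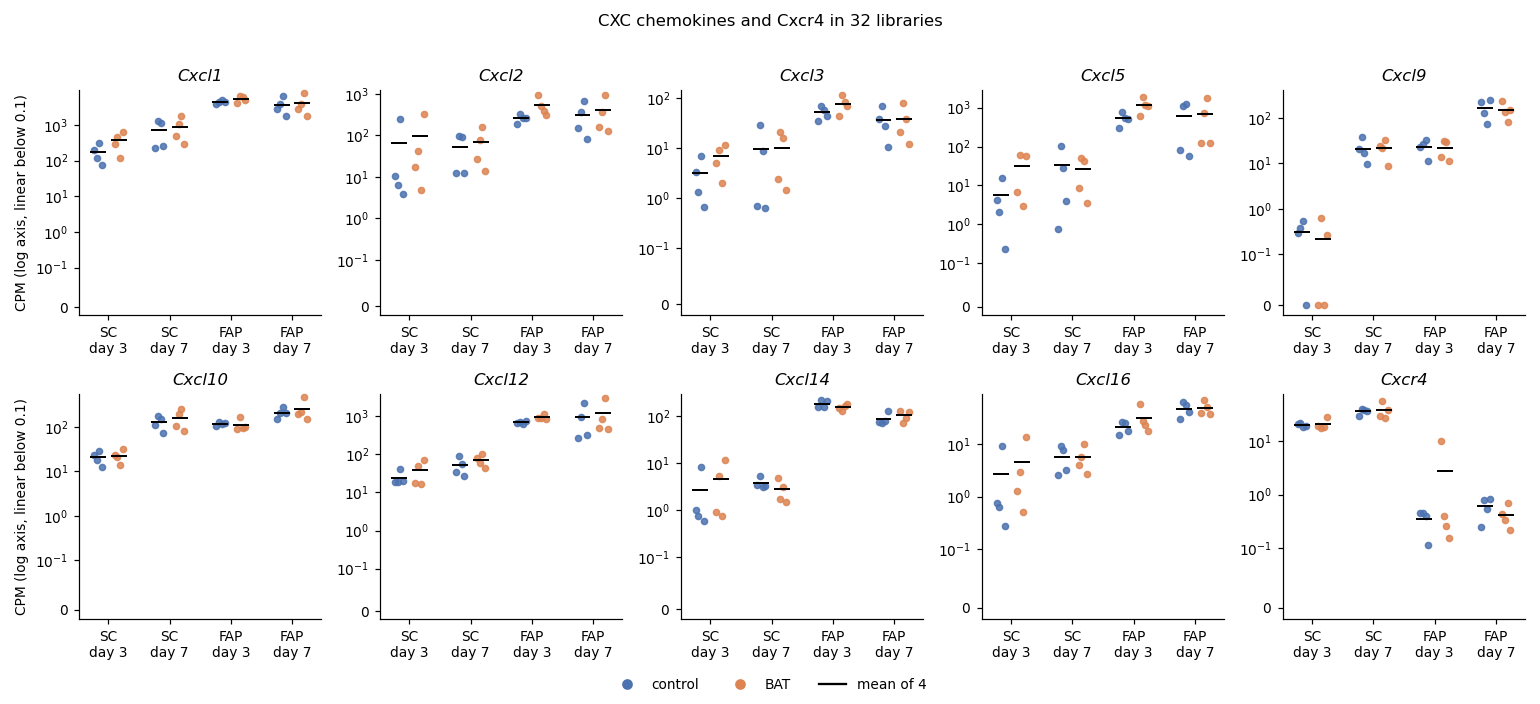
Level of each gene (CPM, log axis, linear below 0.1) in satellite cells (SC) and FAPs at day 3 and day 7, with 1 point per library (blue, control; orange, BAT) and a line at the mean of 4. The 9 chemokines lie higher on average in FAPs, and Cxcr4 lies higher on average in satellite cells. At day 3 the cell types overlap for Cxcl2.

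Over the 8 libraries of a cell type at day 3, the satellite cell and FAP ranges did not overlap for 9 of the 10 genes. At day 7 they did not overlap for 6 of 10. The share of all genes without such overlap is not given here, so these counts cannot be read as particular to the 10 genes. Cxcl14 ranged from 0.594 to 11.4 CPM in satellite cells and from 126 to 221 CPM in FAPs at day 3. Cxcl12 ranged from 17.1 to 72.7 CPM in satellite cells and from 621 to 1113 CPM in FAPs. Cxcl2 was the exception, because 2 satellite cell libraries at 246 and 324 CPM reached into the FAP range of 188 to 938 CPM. At day 7 the ranges overlapped for Cxcl2, Cxcl3, Cxcl5 and Cxcl10.

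Fits of each comparison over all genes (edgeR's quasi-likelihood test, mouse as a block, Benjamini-Hochberg adjusted p under 0.05 as a call) called all 10 genes between the cell types in control and BAT muscle on both days, 9 lower in satellite cells and Cxcr4 higher. Of all genes tested, 71.7% were called at day 3 (35.9% lower, 35.8% higher) and 45.1% at day 7 (22.6% lower, 22.5% higher) in control muscle. In BAT muscle 66.5% were called at day 3 (35.4% lower, 31.1% higher) and 49.9% at day 7 (25.3% lower, 24.5% higher). In control muscle at day 3 the log2 difference, satellite cells minus FAPs, was -7.40 ± 0.75 (SE) for Cxcl5, -6.90 ± 0.65 for Cxcl14, -5.02 ± 0.21 for Cxcl12 and 5.72 ± 0.27 for Cxcr4. It was closest to 0 for Cxcl10, with -2.68 ± 0.16 at day 3 and -1.16 ± 0.19 at day 7.

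FAP transcripts were found in the satellite cell libraries too. In control muscle at day 3, the mean level in satellite cells was 1.06% of the level in FAPs for Cxcl5, 1.45% for Cxcl14, 3.52% for Cxcl12 and 4.10% for Cxcl1. The 10 FAP markers (Pdgfra, Dcn, Col1a1 and others) stood at 0.671% to 6.18% (median 1.15%). Cxcl10 (17.6%), Cxcl16 (13.2%) and Cxcl2 (26.3%) lay above every FAP marker. Without the macrophage-rich satellite cell library (replicate 3) only Cxcl10 did, at 15.2% against at most 4.78% for the markers, and Cxcl2 was at 2.70% and Cxcl16 at 2.65%. At day 7 the FAP markers stood at 0.439% to 15.6% (median 1.62%), and Cxcl10 (61.4%), Cxcl3 (26.6%), Cxcl1 (19.6%) and Cxcl2 (16.8%) lay above them all. The part of FAP RNA in the satellite cell levels was not tested.

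Brown fat went with more Cxcl5 in FAPs at day 3. Control libraries of replicates 1 to 4 read 295, 793, 526 and 510 CPM of Cxcl5, and BAT libraries 614, 1846, 1178 and 1092 CPM. It was higher in the BAT library of all 4 mice, by 2.08 to 2.33 times, although the groups overlap, since BAT replicate 1 lies below control replicate 2. The log2 difference was 1.17 ± 0.08 (SE). Cxcl5 was the only one of the 10 genes called, and 1 of 3 genes called among 15948 (0.0188%). The other 2 were Saa3, an acute-phase protein, and Ereg, a ligand of the EGF receptor. The call of Cxcl5 was lost without the mouse block and without replicate 2, 3 or 4, while its log2 difference stayed between 1.15 and 1.20 in all alternatives. DESeq2 called 2 of the genes (Cxcl5 and Cxcl3), and 0.251% of all genes.

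**Figure D2:**
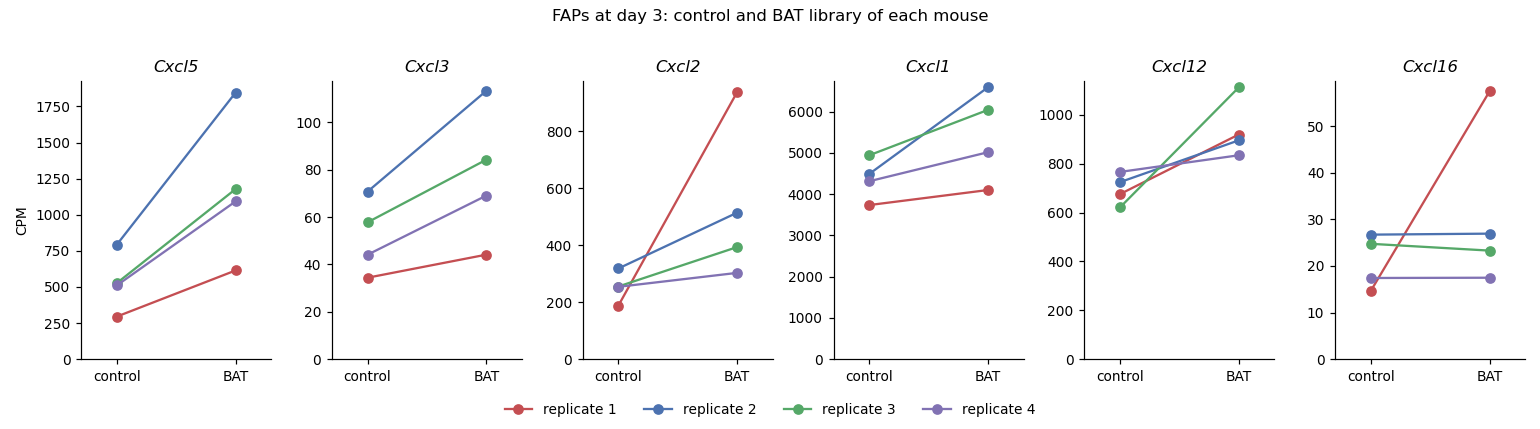
Level (CPM, axis from 0) of 6 chemokine genes in FAPs at day 3, with a line joining the control and BAT library of each mouse, coloured by replicate. Cxcl5, Cxcl3, Cxcl2, Cxcl1 and Cxcl12 are higher with BAT in 4 of 4 mice, while Cxcl16 is raised in replicate 1 alone.

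Cxcl3 read 34.4, 70.8, 57.8 and 44.1 CPM in the control libraries of replicates 1 to 4 and 44.2, 113, 84.3 and 69.1 CPM in their BAT libraries. It was higher with BAT in 4 of 4 mice, by 1.28 to 1.60 times (log2 difference 0.59 ± 0.09), and the groups overlap. Cxcl1, the most abundant, was at 3736, 4489, 4943 and 4313 CPM in control and at 4101, 6591, 6044 and 5017 CPM with BAT. It too was higher in 4 of 4 mice, by at most 1.47 times (0.33 ± 0.09).

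Cxcl2 was at 188, 318, 255 and 254 CPM in control and at 938, 514, 394 and 303 CPM with BAT. All 4 mice were higher, by 1.19 to 4.99 times (0.98 ± 0.32), and the greatest difference was that of replicate 1, whose BAT library was macrophage-rich. Without that mouse the log2 difference was 0.53. Cxcl2 and Cxcl3 appear to share reads: their deposited values were whole numbers in 9 of 32 libraries each (within 0.011 counts), but their sum was whole in 32 of 32, so the division of reads between them is uncertain. The sum was higher with BAT by 4.42, 1.61, 1.53 and 1.25 times in replicates 1 to 4.

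Cxcl12, the ligand of Cxcr4, read 676, 725, 621 and 767 CPM without BAT and 920, 896, 1113 and 835 CPM with BAT in these FAPs. All 4 BAT libraries lay above all 4 control libraries (log2 difference 0.46 ± 0.13), and Cxcl12 was not called. The share of all genes without overlap in this comparison is not given here.

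Cxcl16 and Cxcr4 were high in the macrophage-rich BAT library alone. Cxcl16 was at 14.6, 26.7, 24.8 and 17.4 CPM in control and at 57.5, 26.9, 23.3 and 17.5 CPM with BAT. Cxcr4 was at 0.446, 0.446, 0.397 and 0.114 CPM in control and at 10.2, 0.402, 0.254 and 0.154 CPM with BAT. Without that mouse their log2 differences went from 0.48 to -0.01 and from 1.40 to -0.18 (2.99 for Cxcr4 with all mice but no mouse block). Of 6 brown fat markers, Fabp4, which other cells also express, averaged 12.4 CPM in control and 24.4 CPM in BAT FAPs at day 3. The 5 others, Ucp1, Adipoq, Cidea, Plin1 and Cox8b, were at most 0.363 CPM in these libraries. In the macrophage-rich library Lyz2, a lysozyme of myeloid cells, was at 2530 CPM and Ptprc, the gene of CD45, at 34.0 CPM. Satellite cell genes were high there as well: Myod1 was at 34.0 CPM, Cdh15 at 30.7 CPM and Myf5 at 8.07 CPM, against at most 0.341, 1.05 and 0.149 CPM in the 7 other FAP libraries of day 3. The part of either cell type in Cxcl16 and Cxcr4 was not tested. Without that mouse 2 of the genes were called (Cxcl5, 1.17, and Cxcl3, 0.63; 0.168% of all genes). Without both day 3 mice that gave a macrophage-rich library 4 were called (Cxcl2, Cxcl3, Cxcl5 and Cxcl12, with 0.53% of all genes). This left replicates 2 and 3 alone. The second mouse left out, FAP replicate 4, had its macrophage-rich library among the satellite cells. Its FAP libraries held 17.8 CPM (control) and 20.7 CPM (BAT) of macrophage markers, and without replicate 4 alone 0 genes were called.

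The 3 remaining genes did not lie higher with BAT in FAPs at day 3. Cxcl9 was at 11.0 to 31.9 CPM in control and 11.5 to 31.4 CPM with BAT. Cxcl10 was at 107 to 127 CPM in control and, with BAT, at 90.6 to 97.3 CPM in 3 libraries and 165 CPM in replicate 2. Cxcl14 was at 156 to 221 CPM in control and 126 to 178 CPM with BAT. Their log2 differences were between -0.23 and -0.10, and those of Cxcl9 and Cxcl10 turned to 0.05 and 0.04 without both mice with a macrophage-rich library.

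**Figure D3:**
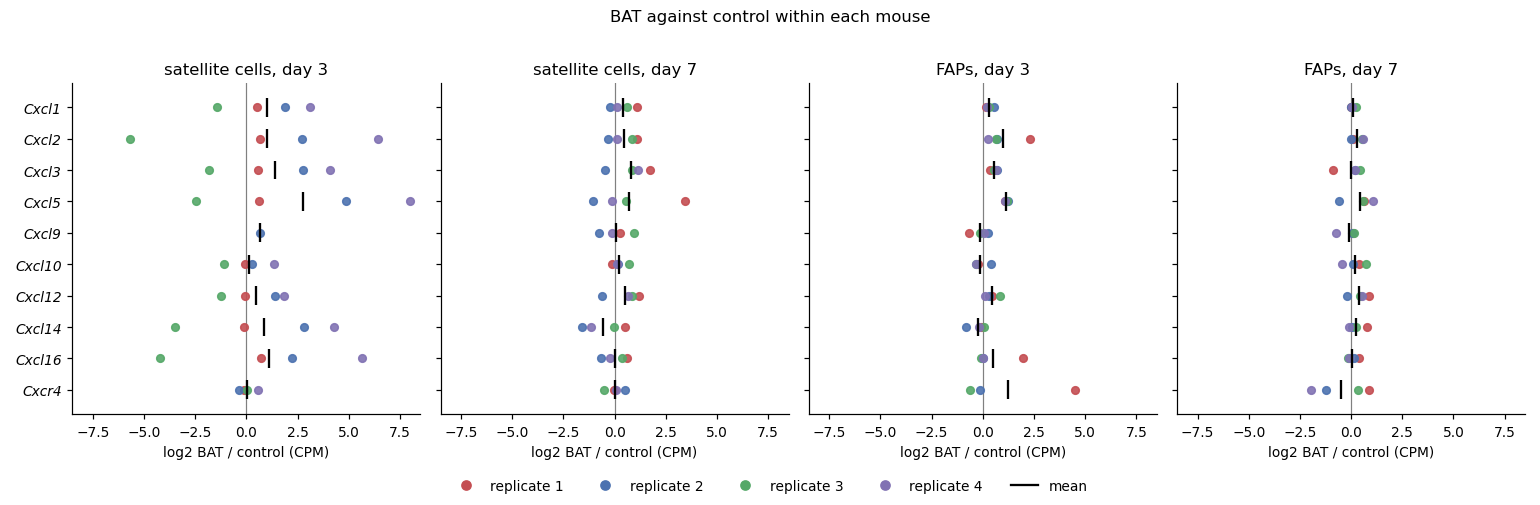
Log2 ratio of the BAT to the control level (CPM) in each mouse, with 1 point per mouse coloured by replicate and a line at their mean, for each cell type and day. Pairs with a library at 3 counts or fewer are left out (3 of Cxcl9 in satellite cells and 1 of Cxcr4 in FAPs, both at day 3). Points lie close together for Cxcl5 in FAPs at day 3 and are spread over several log2 units in satellite cells at day 3.

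Elsewhere no gene of the 10 was called with BAT: 0 of 9 tested in satellite cells at day 3 (0% of all genes called; Cxcl9 failed the filter on low counts), 0 of 10 in satellite cells at day 7 (0.0178%) and 0 of 10 in FAPs at day 7 (0%). At an unadjusted p under 0.05 edgeR counted 0, 3 and 2 of them, and DESeq2 called 0 in each. The share of all genes under an unadjusted p of 0.05 is not given, so such counts, here and below, are not evidence. In FAPs at day 7 the log2 difference was 0.44 ± 0.22 for Cxcl5, 0.41 ± 0.15 for Cxcl12, 0.32 ± 0.13 for Cxcl2 and 0.09 ± 0.10 for Cxcl1. In satellite cells at day 7 it was 0.42 ± 0.18 for Cxcl1, 0.55 ± 0.24 for Cxcl12 and 0.47 ± 0.21 for Cxcl2, each higher in 3 of 4 mice. Cxcr4 in satellite cells differed by 0.05 ± 0.16 at day 3 and 0.03 ± 0.15 at day 7.

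The difference of the BAT response between cell types or between days was tested as such, and none of the 10 genes was called in those 4 comparisons (0.0229%, 0%, 0% and 0% of all genes). At an unadjusted p under 0.05 edgeR counted 3 of them between the days in FAPs and 0 in the other 3 comparisons, and DESeq2 called 0. For Cxcl5 in FAPs the response at day 7 minus that at day 3 was -0.71 ± 0.28, and for Cxcl5 at day 3 the response in satellite cells minus that in FAPs was 1.37 ± 1.85.

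In satellite cells at day 3, Cxcl2, Cxcl16, Cxcl14 and Cxcl5 stood high in libraries rich in markers of other cells. Cxcl2 was at 10.5, 6.23, 246 and 3.79 CPM in control replicates 1 to 4 and at 16.96, 40.7, 4.75 and 324 CPM with BAT. The 2 high libraries, 1 of each arm, were the macrophage-rich ones. Cxcl16 behaved alike, at 0.758, 0.625, 9.36 and 0.274 CPM in control and 1.26, 2.93, 0.506 and 13.8 CPM with BAT. Cxcl14, at 0.985, 0.733, 8.40 and 0.594 CPM in control and 0.920, 5.25, 0.758 and 11.4 CPM with BAT, was also high in BAT replicate 2. Cxcl5 was highest in BAT replicates 2 and 4, with 6.63, 60.3, 2.93 and 58.9 CPM, against 4.36, 2.09, 15.8 and 0.229 CPM in control. Cxcl1, Cxcl3 and Cxcl12 were highest in control replicate 3 and BAT replicates 2 and 4. Cxcl10 spanned only 12.7 to 32.6 CPM over these libraries, and Cxcl9 was at most 0.616 CPM.

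The FAP markers summed to 680 CPM in control replicate 3, 1053 CPM in BAT replicate 2 and 1777 CPM in BAT replicate 4, and to 66.7 to 125 CPM in the other 5 libraries. Neutrophil markers summed to 184 CPM in control replicate 3 and 1.88 to 19.1 CPM in the others. Cxcr4 was nearly level, at 18.1 to 22.0 CPM in control and 17.4 to 28.2 CPM with BAT. The part of other cells in these values was not tested.

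**Figure D4:**
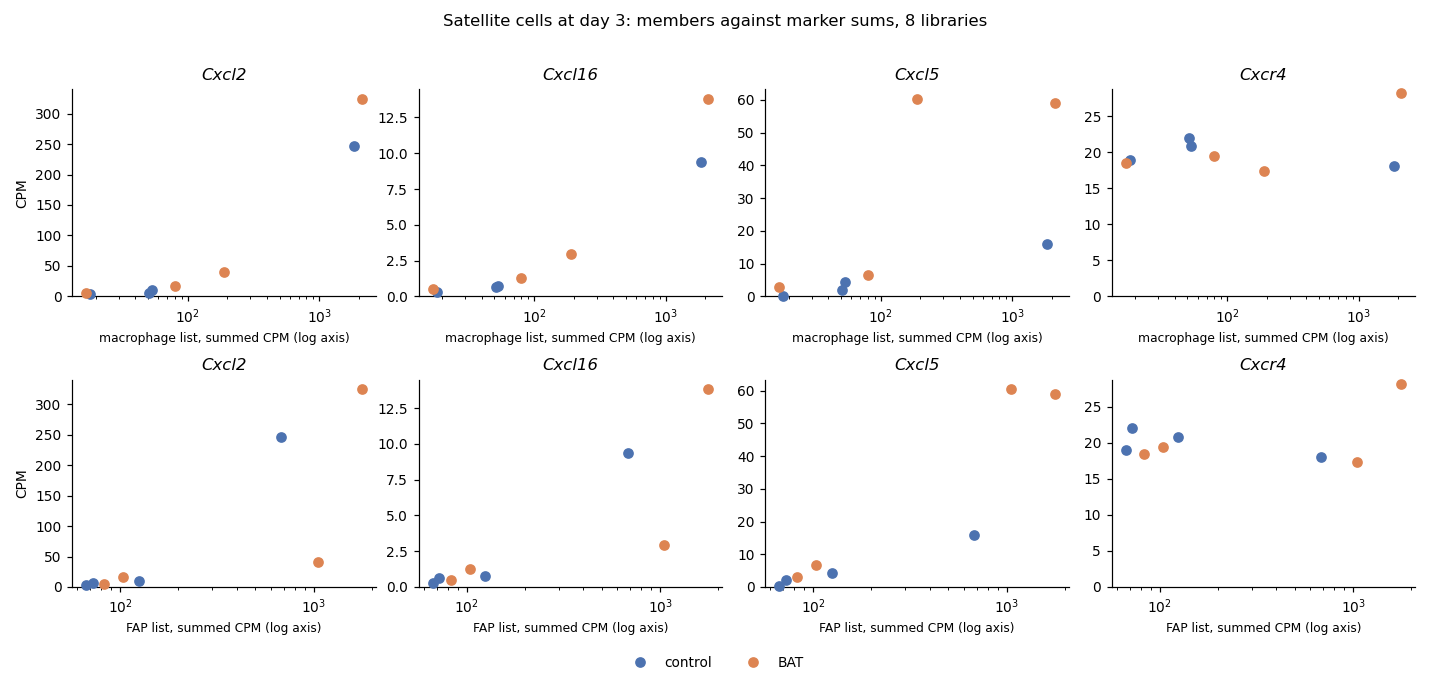
Level (CPM, axis from 0) of Cxcl2, Cxcl16, Cxcl5 and Cxcr4 in the 8 satellite cell libraries of day 3 against the summed CPM (log axis) of 18 macrophage markers (top) and 10 FAP markers (bottom), coloured by arm. Cxcl2 and Cxcl16 are highest in the libraries with 1851 and 2112 CPM of macrophage markers, Cxcl5 in those with 1053 and 1777 CPM of FAP markers, and Cxcr4 stays between 17.4 and 28.2 CPM.

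Between day 3 and day 7 the interferon-inducible pair rose in both cell types and both arms. Day 3 and day 7 were taken from different mice and deposited in separate tables, and mice and day cannot be told apart. Log2 differences are from fits with TMM scaling of the libraries, while CPM are from column totals, so they can differ in size. Control satellite cells held 0.303, 0.388, 0.555 and 0 CPM of Cxcl9 at day 3 and 20.1, 37.4, 16.9 and 9.58 CPM at day 7 (log2 difference 5.66 ± 0.66). Control FAPs held 22.6, 26.8, 31.9 and 11.0 CPM at day 3 and 217, 125, 72.7 and 246 CPM at day 7 (2.86 ± 0.41). Sums of FAP and pericyte markers also stood higher in satellite cell libraries of day 7. In control the 10 FAP markers summed to 66.7 to 680 CPM at day 3 and 844 to 6974 CPM at day 7, and 8 pericyte markers (Rgs5, Kcnj8, Myh11 and others) to 206 to 315 CPM and 1938 to 3839 CPM. With BAT the FAP markers went from between 82.9 and 1777 CPM to between 870 and 2040 CPM, and the pericyte markers from between 178 and 384 CPM to between 2087 and 3145 CPM. The FAP sum in control was mostly Col1a1, at a mean of 124 CPM at day 3 and 2694 CPM at day 7. Mean Pdgfra went from 3.92 to 2.96 CPM and mean Ly6a from 11.1 to 5.95 CPM, while the other FAP markers rose. With BAT, Pdgfra, Ly6a, Cd34 and Clec3b fell on average. Macrophage markers in control summed to 18.3 to 1851 CPM at day 3 and 9.10 to 92.3 CPM at day 7. The part of other cells in the day differences was not tested. In neither cell type did the days of Cxcl9 overlap, and 3 of the 8 satellite cell libraries of day 3 had no count of Cxcl9.

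Cxcl10 in control satellite cells read 23.7, 17.7, 29.4 and 12.7 CPM at day 3 and 110, 176, 154 and 74.7 CPM at day 7 (2.28 ± 0.33). In control FAPs it went from between 107 and 127 CPM to between 151 and 280 CPM (0.89 ± 0.20). With BAT the day differences were 6.17 ± 0.78 (Cxcl9) and 2.54 ± 0.39 (Cxcl10) in satellite cells and 2.77 ± 0.40 and 1.24 ± 0.36 in FAPs. The days overlap for Cxcl10 in BAT FAPs, at 90.6 to 164.6 CPM at day 3 and 149.6 to 461.5 CPM at day 7.

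In control satellite cells 4 of the 10 genes were called higher at day 7, Cxcl1, Cxcl9, Cxcl10 and Cxcr4, and with BAT 2, Cxcl9 and Cxcl10. Of all genes 59.4% were called in control (29.7% higher, 29.8% lower) and 52.9% with BAT (28.5% higher, 24.4% lower). In control FAPs 3 were called higher (11.5% of all genes), Cxcl9, Cxcl10 and Cxcl16, and Cxcl14 was called lower (11.4%; 23% in either direction). In BAT FAPs 2 were called higher (10.3%), Cxcl9 and Cxcl10, and Cxcl14 again lower (12.6%; 22.9% in either direction). Cxcl14 fell from 156, 221, 156 and 206 CPM in control FAPs at day 3 to 74.7, 70.3, 77.9 and 130 CPM at day 7 (-1.02 ± 0.21), without overlap. Cxcl16 rose in control FAPs from between 14.6 and 26.7 CPM to between 29.9 and 62.2 CPM (1.25 ± 0.31). Cxcl1 rose in control satellite cells from 203, 118, 320 and 74.7 CPM to 230, 1257, 1129 and 264 CPM (1.69 ± 0.63). The days overlap there, and the sums of FAP and pericyte markers given above were higher too. The count of 4 in control satellite cells became 7 without day 3 replicate 3, the macrophage-rich one, and 2 without day 3 replicate 4. The count of 3 in BAT FAPs became 1 without day 3 replicate 3 or 4.

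The day difference itself differed between the cell types in control muscle for 3 genes, Cxcl1 (satellite cells minus FAPs, log2 1.94 ± 0.48), Cxcl9 (2.88 ± 0.84) and Cxcl10 (1.54 ± 0.28), all greater in satellite cells (23.8% of all genes were called, 15.4% greater and 8.39% smaller in satellite cells). This count ran from 1 to 7 when a mouse was left out. It was 1 without the mouse of satellite cell replicate 2 and FAP replicate 3 at day 3, and 7 without that of satellite cell replicate 3 and FAP replicate 4 at day 3, which gave a macrophage-rich library. Cxcl2 in control satellite cells turned direction without control replicate 3, that library: day 7 minus day 3 was -0.61 ± 1.24 with it and 2.57 without it.

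In FAPs at day 7 the mice stood further apart than the arms. Cxcl5 read 79.9, 1073, 1224 and 57.6 CPM in the control libraries of replicates 1 to 4 and 122, 723, 1815 and 123 CPM in their BAT libraries. In both arms replicates 2 and 3 were high and replicates 1 and 4 low, with the highest control level 21.3 times the lowest. Cxcl12 was at 274, 955, 2229 and 331 CPM in control and 495, 828, 2968 and 472 CPM with BAT. Cxcl2 was at 153, 368, 655 and 81.8 CPM in control and 161, 367, 950 and 124 CPM with BAT. All 3 were highest in replicate 3, the mouse with Xist.

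Cxcl9 had the opposite order, at 217, 125, 72.7 and 246 CPM in control and 229, 131, 80.4 and 145 CPM with BAT, lowest in replicate 3. Cxcl16 ranged from 29.9 to 67.9 CPM and Cxcl14 from 70.3 to 130 CPM over these 8 libraries. The macrophage markers of these libraries summed to 29.1 to 120 CPM and the 8 satellite cell markers to 209 to 992 CPM. Both were highest in replicate 3 (117 and 848 CPM in control, 120 and 992 CPM with BAT), and their part in its levels was not tested. In replicate 4 of control FAPs at day 7, Ucp1 was at 12.96 CPM and Cidea, another brown fat gene, at 6.07 CPM, against at most 0.318 and 0.0883 CPM in the BAT FAPs of that day. The part of this in the control levels was not tested. The FAP markers summed to 28284 CPM (BAT, replicate 3) to 67522 CPM (control, replicate 2). At day 3 the highest control level of Cxcl5 in FAPs had been 2.69 times the lowest.

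**Figure D5:**
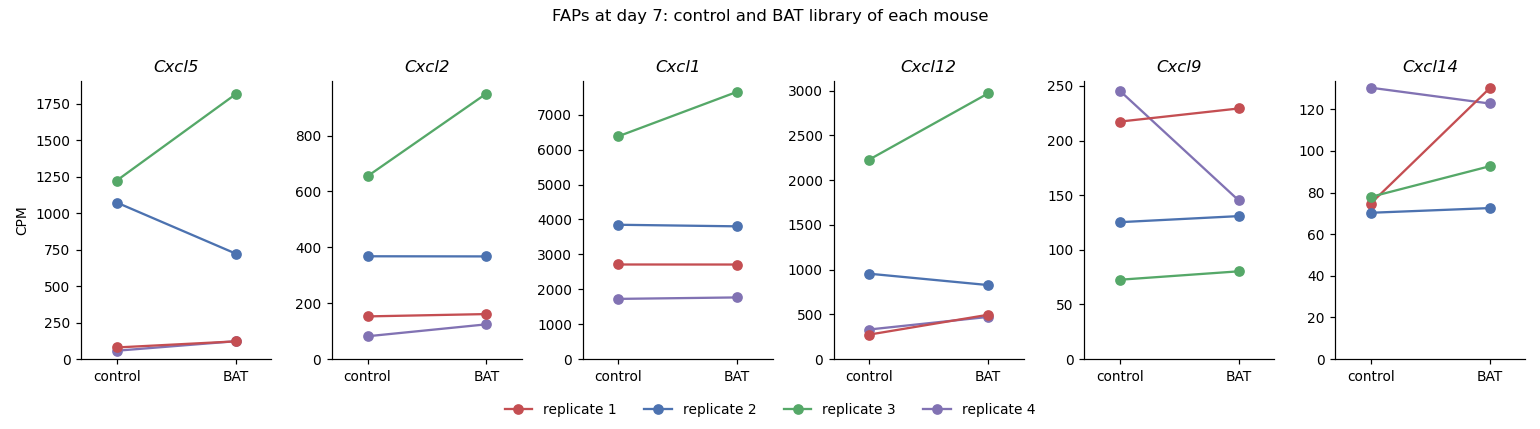
Level (CPM, axis from 0) of 6 chemokine genes in FAPs at day 7, with a line joining the control and BAT library of each mouse, coloured by replicate. Replicate 3 is highest for Cxcl5, Cxcl2, Cxcl1 and Cxcl12 in both arms and lowest for Cxcl9 in both arms.

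Cxcr4 and its ligand were divided between the cell types. Control satellite cells held 20.8, 22.0, 18.1 and 19.0 CPM of Cxcr4 at day 3 and 29.4, 39.2, 38.4 and 36.4 CPM at day 7, without overlap (log2 difference 0.48 ± 0.16). With BAT it was at 19.5, 17.4, 18.5 and 28.2 CPM at day 3 and at 28.7, 55.5, 27.2 and 38.1 CPM at day 7, and was not called (0.59 ± 0.25). In FAPs it was at 0.114 to 0.823 CPM in 15 of 16 libraries. Cxcl12 read 18.4, 19.3, 40.4 and 20.2 CPM in control satellite cells of day 3 and 34.5, 91.6, 54.8 and 27.8 CPM at day 7.

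By group mean, Cxcl12 ran from 1191 CPM in BAT FAPs at day 7 over 947 CPM (control FAPs, day 7), 941 CPM (BAT FAPs, day 3) and 697 CPM (control FAPs, day 3) to 70.5 and 52.2 CPM in BAT and control satellite cells at day 7 and 39.4 and 24.6 CPM at day 3. The SD of the day 7 FAP groups, 1196 CPM with BAT and 909 CPM in control, spans the other FAP groups.

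Ackr3, the scavenger receptor of CXCL12, was on the FAP side: 220 ± 33 CPM (SD, n = 4) in control FAPs against 78.3 ± 17.7 CPM in control satellite cells at day 3 (log2 -1.63, edgeR's quasi-likelihood test, adjusted p = 3.64e-05), and 293 ± 130 against 55.3 ± 13.7 CPM at day 7 (-2.71, adjusted p = 0.000337). The list that holds Ackr3 was chosen with earlier results of these data known, so these values are a description. The shares of all genes called lower in satellite cells are given above.

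Of 17 genes listed for Cxcr4 signalling (G proteins, arrestins, receptor kinases, Hif1a, Mif, Cd74 and others), edgeR called 0 of 16 or 17 tested with BAT in any of the 4 comparisons (0 to 2 at an unadjusted p under 0.05), and DESeq2 called 1, Rgs16, in FAPs at day 7. In FAPs at day 3 the smallest p-values were those of Mif (log2 0.27), Hif1a (0.30), Cd74 (1.81) and Hmgb1 (0.10), with adjusted p of 0.957 to 0.971. Cd74 is also in the list of macrophage markers. It was at 501 CPM in the macrophage-rich BAT library, 1.88 to 9.9 CPM in the other BAT libraries and 1.17 to 6.21 CPM in control. Between the cell types in control muscle at day 3, 6 of 16 were called higher and 6 lower in satellite cells, beside 35.8% and 35.9% of all genes, shares close to those of the list.

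Apart from Ackr3 and Pf4, the other CXC ligands and receptors were low. Of 13 listed genes, 4 or 5 were tested in a BAT comparison and 0 were called by edgeR (0 to 2 at an unadjusted p under 0.05) or DESeq2. Cxcr1 had no count in any library. Cxcr2, the receptor of the ELR chemokines, had group means of at most 0.490 CPM, Cxcr3 of at most 0.0660 CPM, Cxcr5 of at most 0.138 CPM and Cxcr6 of at most 1.09 CPM. Cxcl11 and Cxcl17 had group means of at most 0.850 and 0.241 CPM, Cxcl15 of at most 0.0164 CPM, Ppbp of at most 1.20 CPM, Ackr1 of at most 3.86 CPM and Cxcl13 of at most 4.44 CPM. Pf4, a chemokine of platelets and macrophages, reached 78.9, 86.7 and 196 CPM in the 3 macrophage-rich libraries.

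Most genes of NF-kB, IL-1 and TNF signalling were lower in satellite cells, and none was called with BAT by edgeR. Of 23 tested in control muscle at day 3, 20 were called lower and 2 higher in satellite cells than in FAPs (35.9% of all genes were called lower). In FAPs at day 3, edgeR called 0 of 23 with BAT (5 at an unadjusted p under 0.05), and DESeq2 called 1, Il6. Of the 23, 17 were fitted above 0, beside 46.85% of all genes (median log2 0.29, all genes -0.01). The list was chosen with earlier results of these data known, and 1 of the BAT libraries was macrophage-rich. In FAPs at day 7 and satellite cells at days 3 and 7, edgeR called 0 (5, 1 and 2 at an unadjusted p under 0.05) and DESeq2 0. Il6, which encodes a cytokine induced by this pathway, had the smallest p of edgeR (log2 0.72 ± 0.12, adjusted p = 0.462), before Irak3 (0.41), Il1rl1 (0.52) and Il1rap (0.43), all with an adjusted p of 0.957.

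Most interferon pathway genes were called higher at day 7 in satellite cells. There 16 of 17 were called higher in control satellite cells (29.7% of all genes) and 17 of 17 in BAT satellite cells (28.5%). In FAPs 8 of 17 were called higher in control (11.5%) and 5 of 17 with BAT (10.3%), and 0 were called lower in any of the 4. The medians were log2 2.80, 2.75, 0.60 and 0.70, against 0.03, 0.11, 0.09 and 0.04 over all genes. With BAT 0 of 17 were called by edgeR or DESeq2 in any of the 4 comparisons, and edgeR counted 0 to 2 at an unadjusted p under 0.05. In FAPs at day 3 the smallest p-values included those of Ifnar2 (log2 0.30), Ifit3 (-0.13) and Ifit1 (-0.22), each with an adjusted p of 0.957.

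Of 9 proteases that cleave chemokines or shed CXCL16, 8 were tested in FAPs and 0 were called with BAT by edgeR (0 at day 3 and 2 at day 7 at an unadjusted p under 0.05) or DESeq2. Dpp4, which trims CXCL10 and CXCL12, had the smallest p at day 3 (log2 -0.31, adjusted p = 0.957), before Cpm (0.52), Mmp14 (-0.27) and Fap (-0.15). At day 7 against day 3, 4 of 8 were called higher in control FAPs (11.5% of all genes) and 5 of 8 in control satellite cells (29.7%), and 0 lower in either.

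The genes most like each chemokine over the 32 libraries were found by Pearson's r of log2(CPM + 1) among 14537 genes. The libraries form 2 clusters, the cell types, so values of r over all 32 follow the cell types and are given as a description. Cxcl1 was most like Ccl2 (r = 0.98), Ccl7 (0.98) and F3 (0.96), of which the first 2 encode chemokines of monocytes. Cxcl5 was most like Fgf7 (0.96), Ptgs2 (0.96) and Lif (0.95), and Cxcl3 most like Lif (0.93), Ccl2 (0.93) and Inhba (0.92). Cxcl2 was most like Gla (0.92), Tnfrsf26 (0.92) and Slfn2 (0.91). Cxcl12 was most like Fgf7 (0.99), Dram1 (0.99) and Rspo3 (0.98), and Cxcl14 most like Pdgfra (0.99), Dpep1 (0.99) and Ccbe1 (0.99).

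Cxcl9 was most like Spon1, C1qtnf1 and Tmem140 (0.97 each), Cxcl10 most like Fas, Gem and Ednra (0.96 each), and Cxcl16 most like Tlr2, Ifi207 and Tnfrsf26 (0.96 each). Cxcr4 was most like Iqsec3, Cdh15 and Myf5 (0.98 each), of which Cdh15 and Myf5 are genes of satellite cells and myoblasts. Within the 16 satellite cell libraries Cxcl1 was still most like Ccl2 (0.97) and Cxcl16 most like Tlr2 (0.98), a receptor of innate immune cells, while within the 16 FAP libraries Cxcl12 was still most like Fgf7 (0.98). Cxcr4 within FAP libraries was most like Klhl6, Hcls1 and Nrros (0.97 each), which are genes of leukocytes, and the macrophage-rich FAP library is 1 of these 16.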

How the data were processed

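RNA was sequenced from sorted satellite cells and FAPs, 32 libraries. The authors deposited estimated counts per gene in a table for each day, with DRAGEN and mm10 named per the submitters' processing notes. For the gene annotation and the handling of shared reads, the method is not given in the sources used here. Of 55774 rows per table, 287 repeated gene identifiers were removed, and 0 columns lacked a sample. Of the values above 0, 71.78% were whole. Counts were rounded for the tests, which changed library totals by at most 0.000343%. CPM were computed from column totals with Python 3.11.15, pandas 2.3.3 and numpy 2.4.6.

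Each comparison was fitted over all genes with edgeR 4.0.16 in R 4.3.3: TMM scaling, filterByExpr with a minimum count of 10 and a minimum total of 15, the quasi-likelihood test and Benjamini-Hochberg adjustment at 0.05. The SE of a log2 difference is its size over the square root of F. BAT and cell type comparisons had the mouse as a block, because the labels' codes tie libraries to mice. For 1 mouse of day 3 the labels hold no code, and its libraries were joined as the remaining ones. Deviations of the BAT and control library of a mouse from their group means correlated by -0.370 to 0.498 in satellite cells and -0.050 to 0.339 in FAPs at day 3, and by 0.187 to 0.670 and 0.520 to 0.785 at day 7. The BAT library correlated best with its own partner for 1 of 4 mice in satellite cells and 3 of 4 in FAPs at day 3. At day 7 it did so for 4 of 4 in both. Mice are the replicates, numbered 1 to 3 by the labels, and the unnumbered library of each group was called replicate 4. Alternatives were DESeq2 1.42.0, other scaling, no filter, no block, each mouse or library left out and Cxcl2 and Cxcl3 counts summed, the last chosen after seeing the data. Intervals implied by 3 counts cover counting error only. The simulated data test of the fits is not quoted.

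The 10 genes and the gene lists were chosen with earlier results of these data known. Named beside the 10 genes are the 3 genes most like each (mean of at least 1 CPM), every gene of the list of other CXC genes and up to 4 genes of each other list with the smallest p for BAT in FAPs at day 3. Adrbk1 and Adrbk2, older symbols of Grk2 and Grk3, were listed beside these and are not counted. A gene that this rule names in the interferon list is not reported here.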

Additional observations from a re-analysis of the deposited data

Results flagged for a closer look

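In groups of 4, a library counts as outlying where its gap to the next exceeds Dixon's 95% limit, a set share of the group's range. Independent, normally distributed values meet it in about 1 of 20 groups. This held for 11 of 80 groups. The groups share libraries across genes, CPM need not be normally distributed, and the share over all genes is not given. The count therefore cannot be set against that rate. In control satellite cells at day 3, replicate 3, the macrophage-rich library, was high for Cxcl2 (246.4 CPM), Cxcl12 (40.37 CPM), Cxcl14 (8.4 CPM) and Cxcl16 (9.364 CPM). In BAT satellite cells at day 3, replicate 4, also macrophage-rich, was high for Cxcl2 (324.3 CPM). In BAT FAPs at day 3, replicate 1, another such library, was high for Cxcr4 (10.21 CPM), and replicate 2 was high for Cxcl10 (164.6 CPM). Cxcr4 was low in replicate 4 of control FAPs at day 3 (0.1137 CPM, 3 counts). At day 7, Cxcl14 was high in replicate 2 of control satellite cells (5.191 CPM), whose FAP markers summed to 6974 CPM, and in replicate 4 of control FAPs (130.3 CPM), the library with Ucp1 at 12.96 CPM. Cxcl12 was high in replicate 3 of BAT FAPs at day 7 (2968 CPM), the mouse with Xist. The part of other cells or of the mouse in these values was not tested.

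The change from day 3 to day 7 in control muscle differed between satellite cells and FAPs for Cxcl1 by 1.94, for Cxcl9 by 2.883 and for Cxcl10 by 1.543 on the log2 scale, with the difference itself fitted. The genes were chosen with these values known, so the differences are a description.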

How the results depend on the processing

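Of the values of the 10 genes that were called, 57 in all, 544 were recomputed under an alternative. Direction and call were the same in 499 of these, and in 45 the call was lost. The fitted sign changed 108 times, in 59 of 169 values, and never for a called value (0). The only change of sign in which either value was called was that of Cxcl2 between days in control satellite cells, -0.61 with all libraries, -1.08 to 2.57 with a library left out and 2.57 without day 3 replicate 3. For BAT in FAPs at day 3, 1 gene was called as reported (0.0188% of all genes) and 2 by DESeq2 (0.251%). With no filter 2 were called (0.208%), and without the mouse block 0 (0%). With a mouse left out 0 to 2 were called (0% to 0.168%), and 0 without replicate 2, 3 or 4. Without both mice with a macrophage-rich library, which left replicates 2 and 3 alone, 4 were called (0.53%). Apart from Cxcl5 there, dropping the block changed no count of these genes called with BAT. With no filter, 2 were called for BAT in satellite cells at day 7, 2 for BAT in FAPs at day 7, 1 for the BAT response of satellite cells minus that of FAPs at day 7, and 1 for that of FAPs at day 7 minus day 3. With a library left out, the day comparison called 2 to 7 in control satellite cells and 1 to 3 in BAT FAPs, and the day difference between cell types 1 to 7. Without both macrophage-rich mice these called 2 (control FAPs), 1 (BAT FAPs) and 5 (between cell types). Apart from BAT in FAPs at day 3, the share of all genes called under these alternatives is not given, here or above. Such counts cannot be read as particular to the 10 genes. The cause of each of these changes was not tested. No paired analysis was possible between days because each mouse was taken at 1 day. The absence of a sham group and 4 mice per day limit every BAT value, and the 3 libraries rich in macrophage markers those of day 3.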

Other observations

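The ELR chemokine genes lie in a row on chromosome 5 with genes of the EGF family. From Cxcl5 to Areg, which encodes amphiregulin, this stretch spans 389 kb and holds 11 protein-coding genes, 8 of which were tested in FAPs at day 3. All 8 were fitted above 0 with BAT, beside 46.85% of all genes, a stretch chosen after its values were seen. The 8 include Cxcl1, Cxcl2, Cxcl3 and Cxcl5, which were chosen with their BAT responses known. Ereg, which encodes epiregulin, was at 17.6 CPM in control and 51.7 CPM with BAT on average (log2 1.67 ± 0.14, edgeR's adjusted p = 0.0204) and higher in 4 of 4 mice. Areg was at 7.12 and 12.7 CPM (1.06 ± 0.23, adjusted p = 0.873) and higher in 4 of 4 mice. Pf4 was at 50.7 CPM on average with BAT (2.88 ± 1.58), with 196 CPM in the macrophage-rich library. Mthfd2l, an enzyme gene between the groups, differed by 0.01 ± 0.31. At day 7 Ereg differed by 0.99 ± 0.42 and Areg by 0.52 ± 0.31 in FAPs, and neither was called.

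Beyond Cxcl2 and Cxcl3, the values of Cxcl16 were whole counts in only 8 of 32 libraries and those of Cxcl10 in 29, while the other 6 genes were whole in all 32. How these values came to be fractions was not tested.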
